A study of Mus musculus with 8 samples.

Results

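The genes described here encode the protein parts of the cell's 2 ribosomes, the cytosolic ribosome and the mitochondrial ribosome. They were taken by name: protein-coding genes whose symbols begin with Rpl or Rps (cytosolic) or with Mrpl or Mrps (mitochondrial), without the S6 kinase genes and names marked as pseudogenes. Of 86 cytosolic genes 83 had at least 10 counts in at least 4 of the 8 libraries, and of 78 mitochondrial genes 77 did, which gave 160 genes out of 164 in a table of 48440. The 4 left out were Rpl3l, with at most 22 counts in a library, and Rpl10l, Rpl39l and Mrpl53, with 0 counts in every library. All 160 entered the comparison among 18274 genes tested.

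RNA was sequenced from entire livers of 8 neonatal CD1 mice, an outbred stock, at 3 to 8 days of age. The 4 knockout pups carried a germline deletion of Myo5b, which is present in every cell type, and the 4 control littermates were heterozygous or wildtype, with no label telling these apart. Myo5b encodes myosin Vb, an actin-based motor for recycling endosomes on their way to the apical surface. Each library is 1 animal, knockouts 275 to 278 and controls 279 to 282, and holds 14228268 to 18398039 counts. Levels are given as CPM, a count scaled to the size of its library, and differences as log2 fold changes of knockout over control with their SE. A gene was called higher or lower where the adjusted p of edgeR's quasi-likelihood test, taken over all genes tested, was under 0.05.

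The cytosolic ribosome makes nearly all of the cell's proteins. Its small subunit reads the mRNA and its large subunit joins the amino acids, and its protein mRNAs often start with a run of pyrimidines, the terminal oligopyrimidine (TOP) start, through which mTORC1 controls their translation. The mitochondrial ribosome is a separate machine of bacterial ancestry. It makes the few respiratory chain proteins encoded in mitochondrial DNA, and all of its own proteins come from nuclear genes and are imported. In the neonatal liver both hepatocytes and developing red cells make ribosomes.

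Myo5b lay at 43.1 to 59.5 CPM in the knockouts and at 94.0 to 172 CPM in the controls (log2 fold change -1.43, SE 0.18, adjusted p = 3.14e-04), so the genotype labels held. Markers of several cell types moved with genotype. All 17 tested erythroid markers were lower in the knockouts (median log2 fold change -1.82), and their summed level was 2250 to 4572 CPM against 9035 to 11840 CPM. Of 10 Kupffer cell markers 9 were higher (median 0.77; summed 1451 to 1725 against 839.9 to 954 CPM) and of 5 endothelial markers 5 were higher (0.52; 812 to 962 against 613 to 664 CPM). Of 7 neutrophil markers 0 were higher and 1 lower (summed 579 to 925 against 754 to 968 CPM), of 5 cholangiocyte markers 0 were called (42.9 to 57.4 against 41.6 to 47.7 CPM), and of 6 stellate cell markers 2 were higher and 2 lower (1428 to 1489 against 1626 to 2100 CPM). Of 10 hepatocyte markers 1 was higher and 3 were lower, with summed levels of 83960 to 97060 against 107200 to 135600 CPM. That gap came from Alb, the albumin gene (mean 32558 against 68617 CPM), and without it the other 9 summed to 56710 to 61360 against 50030 to 61620 CPM, which overlap. No marker was at 0 in every library, and the part of these other cell types in the results was not tested, except for the erythroid level. In whole liver, fewer cells of a type and less RNA per cell cannot be told apart.

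The 2 ribosomes differed between the genotypes with opposite signs. Of the 83 cytosolic genes 13 were called higher in the knockouts and 0 lower (15.7% higher, beside 9.27% of all genes tested). Of the 77 mitochondrial genes 0 were called higher and 9 lower (11.7% lower, beside 11.4% of all genes tested), so the share of mitochondrial genes called lower was near the background while that of cytosolic genes called higher was above it. At an unadjusted p under 0.05 in the same test, 21 cytosolic genes were higher and 1 lower. For mitochondrial genes the counts were 1 higher and 21 lower. Among all 18274 genes tested, 2868 were higher and 3085 lower at that cutoff. Over all genes 1694 were called higher and 2088 lower, 20.7% in all. All genes tested are a less precise background than the members. The median SE was 0.099 for cytosolic and 0.139 for mitochondrial genes, beside 0.183 over all genes. Median levels were 46.1, 20.1 and 12.4 CPM. The part of level and precision in the shares called, and in the shares without overlap given below, was not tested.

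The differences were small and spread over many members. The median log2 fold change was 0.15 for cytosolic genes (quartiles 0.05 and 0.29) and -0.15 for mitochondrial genes (quartiles -0.30 and 0.01), beside 0.01 over all genes tested (quartiles -0.27 and 0.29). The fitted value was above 0 for 67 of 83 cytosolic genes (80.7%) and for 20 of 77 mitochondrial genes (26%), beside 51.0% of all genes. All knockout values lay above all control values for 23 cytosolic genes (27.7%, beside 10.8% of all genes) and below them for 0. They lay below all control values for 11 mitochondrial genes (14.3%, beside 12.8%) and above them for 0. Only Rpl29 was over 2-fold on the fitted scale, and it was not called.

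**Figure D1:**
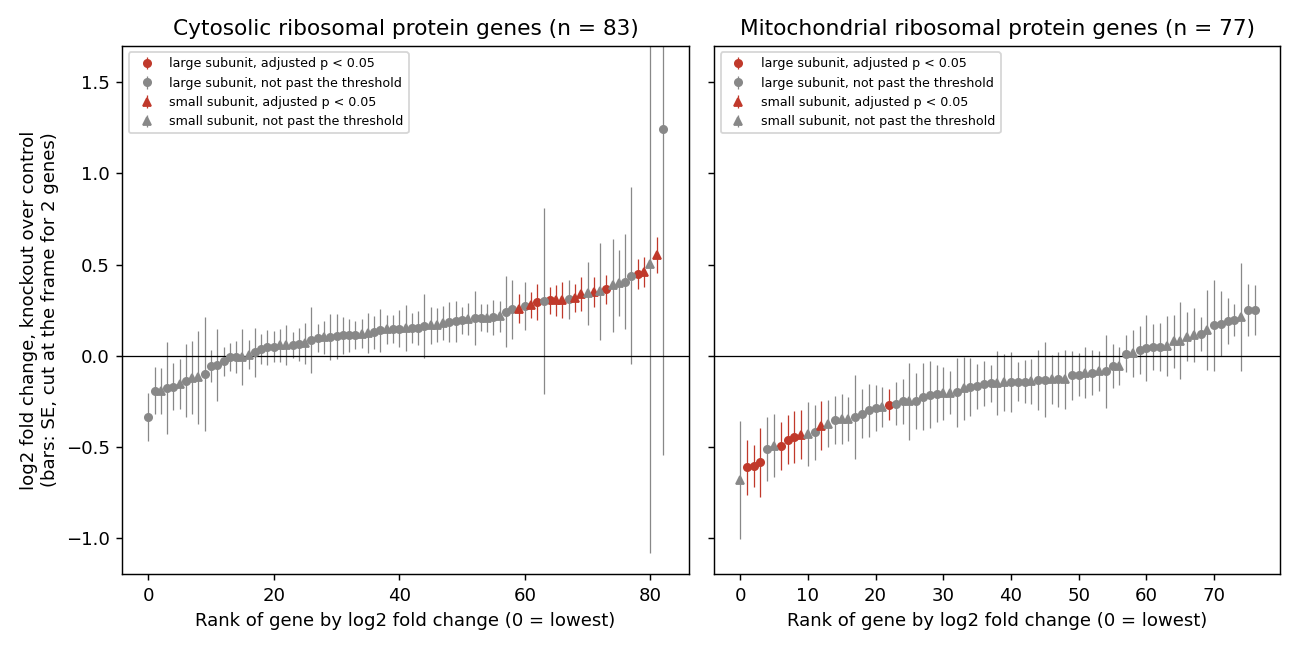
Each point is a ribosomal protein gene, placed by rank on the horizontal axis and by its log2 fold change (knockout over control) on the vertical axis, with bars of 1 SE, for 83 cytosolic genes on the left and 77 mitochondrial genes on the right. Circles are large subunit and triangles small subunit genes, red where called. The cytosolic points lie mostly above 0, with 13 red, and the mitochondrial points mostly below 0, with 9 red.

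The counts of calls depended on single animals and on the scaling. Without knockout 275 the cytosolic genes called higher numbered 8, and 6.88% of all genes were called higher. The mitochondrial genes called lower numbered 4 without knockout 276, 5 without control 279, 4 without control 280 and 5 without control 281. In these fits 9.01% to 9.82% of all genes were called lower. With libraries scaled by their totals alone, 20 cytosolic genes were called higher and 4 mitochondrial genes lower. Of all genes 12.6% were then called higher and 9.28% lower, and the higher share of all calls was 57.6% in place of 44.8%. The medians kept their signs under every alternative tried. When the mean level of the erythroid markers was a term of the fit, 0 cytosolic and 0 mitochondrial genes were called, with medians of 0.13 and -0.13. Among all 18274 genes 21 were then called higher and 18 lower (0.115% and 0.0985%). In that fit the median SE was 0.302 in place of 0.099 for cytosolic genes and 0.409 in place of 0.139 for mitochondrial genes, because the erythroid level and genotype nearly coincide in these 8 libraries (the variance of the genotype estimate rose 9.17-fold), and the contributions of the erythroid level and of genotype cannot be told apart.

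Summed over members, cytosolic ribosomal protein genes took 0.812%, 0.770%, 0.796% and 0.789% of the counts in knockouts 275, 276, 277 and 278, and 0.673%, 0.660%, 0.691% and 0.693% in controls 279, 280, 281 and 282. Every knockout lay above every control, with means of 0.792% ± 0.0174 (SD, n = 4) and 0.679% ± 0.0155 (SD, n = 4). The mitochondrial genes took 0.156% to 0.171% in the knockouts and 0.168% to 0.175% in the controls, ranges that overlap. The summed mitochondrial count per cytosolic count was 0.194, 0.203, 0.210 and 0.217 in the knockouts and 0.250, 0.265, 0.253 and 0.248 in the controls. Here the genotypes did not overlap.

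A mean that gives each gene the same weight showed how the animals differed. This was the mean over members of log2(CPM + 0.5) less the gene's mean over the 8 libraries. For mitochondrial genes it ran from -0.15 to -0.01 in the knockouts and from 0.04 to 0.15 in the controls, with knockout 276 lowest and control 280 highest. For cytosolic genes it was 0.17, -0.04, 0.07 and 0.12 in knockouts 275 to 278 and -0.14, -0.10, -0.03 and -0.04 in the controls. Knockout 276 thus lay within the control range. Rpl29, Rps2, Rps3a1 and Rpl34, variable genes described below, were then left out, a choice made after their values were seen. Without them the knockouts lay at 0.01 to 0.09 and the controls at -0.08 to -0.06. Rpl24, Rpl21, Rpl38 and Rpl13a stayed in, though their ratios of highest to lowest library (2.31 to 4.68) exceeded that of Rps3a1 (2.17).

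**Figure D2:**
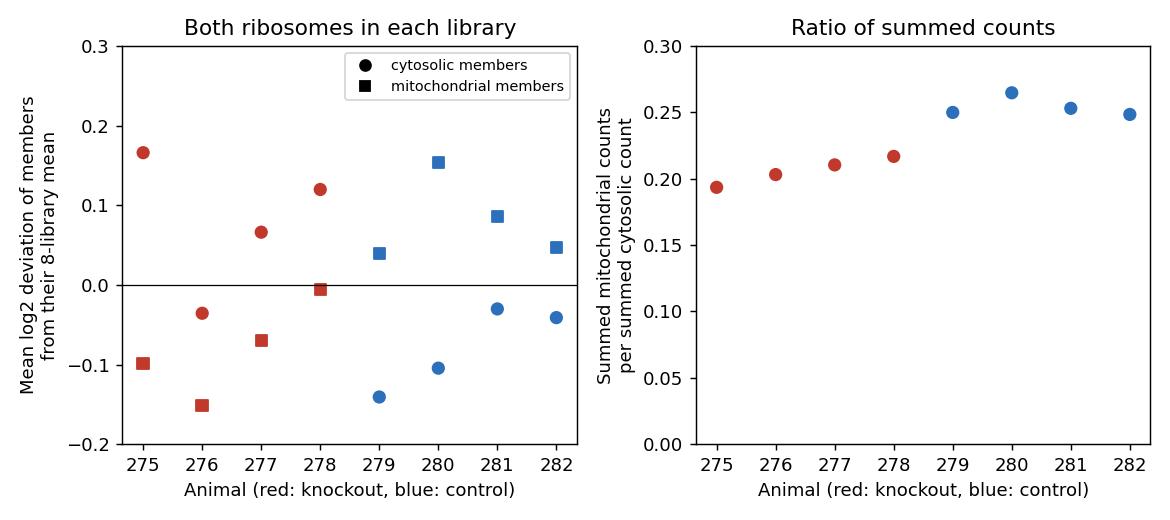
The left panel gives, for each animal, the mean log2 deviation of cytosolic (circles) and mitochondrial (squares) members from their mean over the 8 libraries, and the right panel the summed mitochondrial count per cytosolic count, with knockouts in red and controls in blue. Mitochondrial squares are at or below -0.01 in the knockouts and at or above 0.04 in the controls, and the ratio is at most 0.217 in the knockouts and at least 0.248 in the controls.

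By subunit, 9 of 34 genes of the cytosolic small subunit were called higher (26.5%; median log2 fold change 0.19) and 4 of 49 of the large subunit (8.16%; median 0.13), beside 9.27% of all genes, a difference between subunits that was not tested. Of the mitochondrial genes 7 of 48 of the large subunit (14.6%; median -0.15) and 2 of 29 of the small subunit (6.90%; median -0.15) were called lower, beside 11.4% of all genes. By share called, the small subunit of the cytosolic ribosome was thus above its background, and the other 3 subunits were near or below theirs. The shift was not confined to that subunit. Values were above 0 for 29 of 34 small (85.3%) and 38 of 49 large (77.6%) subunit genes of the cytosolic ribosome, beside 51.0% of all genes. All knockouts lay above all controls for 13 (38.2%) and 10 (20.4%) of them, beside 10.8%.

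Among the small subunit genes of the cytosolic ribosome, Rps27rt had the largest called difference. It is a retrogene, a copy of Rps27 made by reverse transcription, on chromosome 9 (114982366 to 114982739, minus strand; all gene positions are those of GENCODE M21 on GRCm38). It measured 61.5, 52.1, 52.8 and 51.0 CPM in knockouts 275 to 278 and 40.6, 36.7, 34.4 and 36.7 CPM in controls 279 to 282. All knockouts lay above all controls, with knockout 275 the highest, and the log2 fold change was 0.55 (SE 0.10, adjusted p = 6.84e-04). Its parent Rps27 (log2 fold change 0.40, SE 0.18) was at 8.37 to 9.40 CPM in the knockouts and 5.36 to 7.92 CPM in the controls and was not called (adjusted p = 0.139). Both share most of their sequence with other genes: 91.1% of the 50-base windows of Rps27rt and 98.6% of those of Rps27 also occur in a gene elsewhere, so the assignment of reads to them is uncertain.

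Rps20 encodes a protein of the head of the small subunit (chromosome 4, 3831334 to 3835665, minus strand). Of its windows 7.58% occur elsewhere, in 50 genes, 4 of them pseudogenes. That share is taken over a transcript of 3706 bases, and the assignment of reads to Rps20 is uncertain too. Its levels were 124, 104, 111 and 119 CPM in the knockouts and 86.1, 78.8, 80.0 and 88.5 CPM in the controls. The lowest knockout lay above the highest control (log2 fold change 0.46, SE 0.08, adjusted p = 8.30e-04).

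Rps6 (chromosome 4, 86854660 to 86857412, minus strand) is the small subunit protein that S6 kinases phosphorylate downstream of mTORC1. It measured 139.9, 122, 123 and 125 CPM in the knockouts and 102, 100.5, 91.9 and 105 CPM in the controls. The groups did not overlap, and knockout 275 again stood highest (log2 fold change 0.35, SE 0.08, adjusted p = 0.00513). Rps7 (chromosome 12, 28630854 to 28635953, minus strand), also of the small subunit, measured 77.4, 64.3, 71.5 and 61.0 CPM in the knockouts and 56.5, 56.9, 52.9 and 50.7 CPM in the controls. The groups were close but did not overlap (log2 fold change 0.34, SE 0.09, adjusted p = 0.0165), and the call was lost without knockout 275 or 277 or control 282 (log2 fold changes over the 8 omissions 0.28 to 0.39). With the erythroid covariate its sign turned (-0.15). For Rps6 84.6% and for Rps7 70.3% of windows occur in a gene elsewhere.

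Further small subunit genes called higher were Rps10 (0.31), Rps4x (0.30), Rps14 (0.28) and Rps9 (0.26), values that are log2 fold changes with SEs of 0.07 to 0.10. In each of these 4 genes every knockout lay above every control. The call of Rps14 held with each animal left out, that of Rps4x was lost without knockout 275 (log2 fold change at least 0.26 over the omissions), and those of Rps10 (0.27 to 0.35) and Rps9 (0.21 to 0.29) were lost in 6 of the 8 omissions each. Rps10 was kept as called without knockout 276 or control 282, and Rps9 without control 280 or 282.

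In the large subunit Rpl5 led. Its protein binds the 5S ribosomal RNA and, when free of the ribosome, the p53 regulator Mdm2. Rpl5 (chromosome 5, 107900502 to 107909005, plus strand) measured 141, 139.5, 129.8 and 122 CPM in the knockouts and 104, 95.3, 94.9 and 96.4 CPM in the controls. The lowest knockout stood well above the highest control (log2 fold change 0.45, SE 0.08, adjusted p = 7.18e-04). Of the windows of Rpl5 48.5% occur in a gene elsewhere, all of them pseudogenes, and 93.8% when a gene that overlaps it is counted, so its read assignment is uncertain too. Rpl23, a protein of the face that meets the small subunit (chromosome 11, 97777527 to 97782437, minus strand), measured 146, 135, 138 and 129.9 CPM against 104, 109, 98.1 and 115 CPM. It did not overlap between the genotypes (log2 fold change 0.36, SE 0.08, adjusted p = 0.00353), and 34.8% of its windows occur elsewhere. Rpl18 (0.29, SE 0.10, adjusted p = 0.0449) was also called higher, without overlap. The call of Rpl18 was lost without knockout 275, 276 or 277 or control 279, 280 or 281 (0.26 to 0.33 over the omissions).

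**Figure D3:**
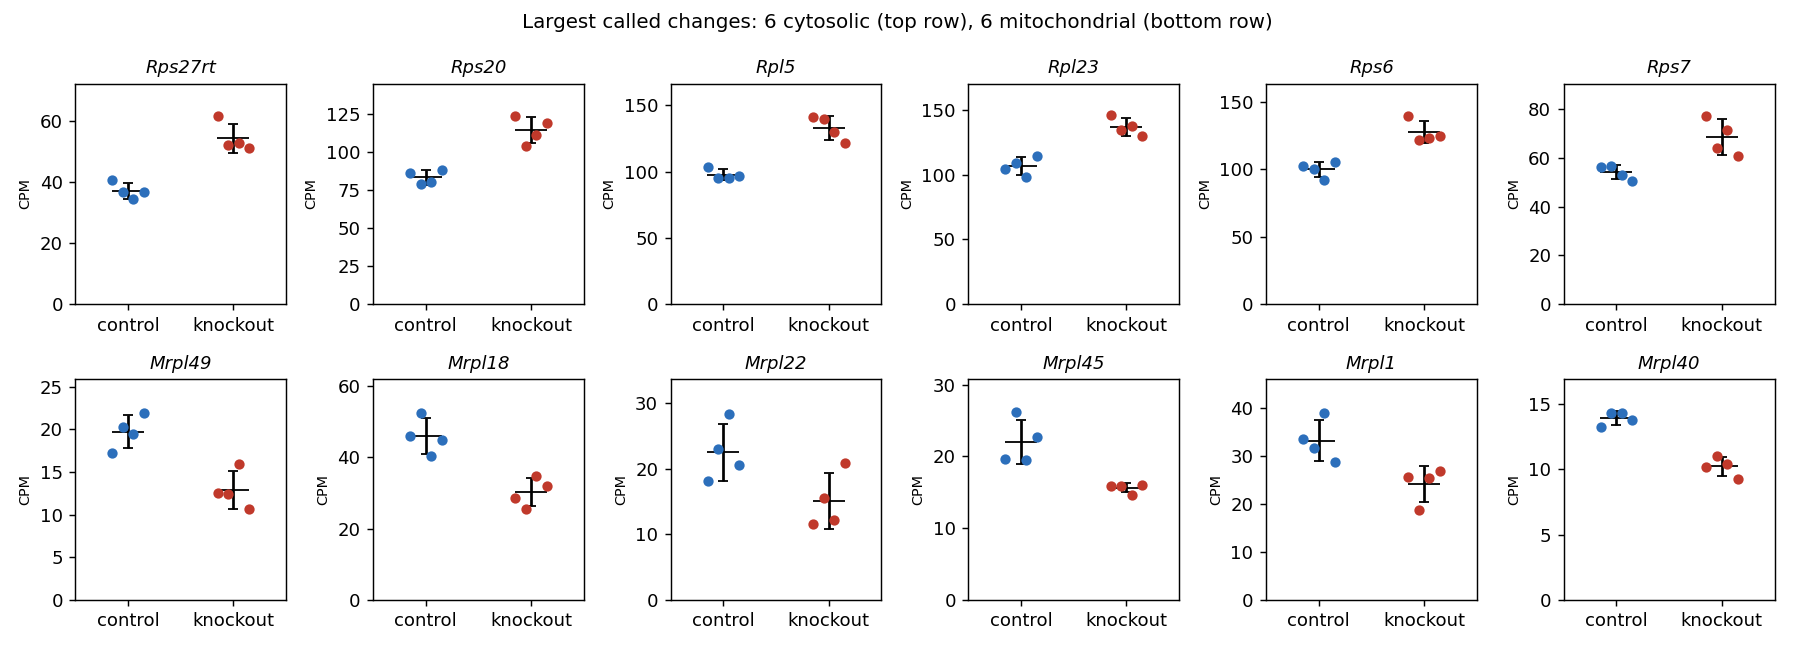
Each panel shows CPM (vertical axis, from 0) in 4 control (blue) and 4 knockout (red) livers, with the mean and SD in black, for the 6 cytosolic (top) and 6 mitochondrial (bottom) members with the largest called differences. Knockouts lie above controls in each top panel and below them in each bottom panel except Mrpl22, where knockout 278 (20.9 CPM) lies above controls 279 (18.2 CPM) and 282 (20.6 CPM).

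The stalk proteins and the most abundant members were not called. Per kilobase of transcript, Rplp1 was the highest cytosolic member (682 CPM per kb), followed by Rpl8 (439 CPM per kb), with a median over the set of 56.4 CPM per kb and Rpl24 lowest at 1.93. Rplp0, Rplp1 and Rplp2 form the stalk that recruits translation factors, and their log2 fold changes were 0.04 (SE 0.08), 0.06 (SE 0.07) and 0.06 (SE 0.09), none called. Rplp1 measured 342 to 351 CPM in the knockouts and 323 to 341 CPM in the controls, so that the ranges came within 1 CPM of each other without overlapping. Rpl8, at the peptidyl transferase centre, had a log2 fold change of -0.03 (SE 0.08), and Rpsa, a small subunit protein also known as the laminin receptor, 0.12 (SE 0.08, adjusted p = 0.306). The sign of Rpl8 turned with libraries scaled by their totals alone (0.04).

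Rpl15 went the other way from most cytosolic genes. It measured 19.95, 21.3, 22.7 and 28.1 CPM in the knockouts and 26.9, 26.01, 29.9 and 33.7 CPM in the controls. Knockout 278 lay inside the control range, and the gene was not called (log2 fold change -0.34, SE 0.13, adjusted p = 0.0802). Without knockout 278 it was called lower, as it was by limma-voom. Rpl15 was singled out after its values were seen, as the cytosolic gene with the lowest log2 fold change.

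Paralogs, alternative copies of a ribosomal protein, were compared with their partners. Rpl22l1 had a log2 fold change of 0.16 (SE 0.18) and Rpl22 of 0.21 (SE 0.07, adjusted p = 0.0581, groups not overlapping). Rps27l, known as a p53 target, had -0.19 (SE 0.13), against 0.40 for Rps27, and neither was called. Rpl7l1 had -0.17 (SE 0.13) and Rpl7 0.05 (SE 0.09). Rpl36al had -0.01 (SE 0.09) and Rpl36a 0.10 (SE 0.12). None of these differences within pairs was tested. Rps19bp1 (-0.16) was kept by its name, though it encodes a protein that binds Rps19, not a subunit.

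Some cytosolic genes varied far more between animals than between genotypes. They were chosen after their values were seen. Rpl29 measured 80.3, 1.79, 1.69 and 66.9 CPM in the knockouts and 0.844, 1.81, 1.60 and 60.0 CPM in the controls, so that 3 animals, knockouts 275 and 278 and control 282, stood apart from the other 5. Its highest library was 95.2 times its lowest, where the median cytosolic gene had a ratio of 1.36 and the median mitochondrial gene 1.58. The fitted difference for Rpl29 was 1.24 with an SE of 1.79.

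Rps2 showed such a split in other animals. It measured 123 CPM in knockout 275 and 82.9 CPM in control 281, and 3.79 to 6.06 CPM in the other 6, a ratio of 32.5 between highest and lowest. Milder spreads were seen for Rps3a1 (56.6, 81.0, 84.8 and 97.6 CPM against 45.4, 44.9, 80.6 and 79.7 CPM) and Rpl34 (39.6, 15.5, 56.9 and 45.6 CPM against 14.5, 28.0, 51.5 and 34.0 CPM). All 4 genes have near-identical copies, with 66.6% (Rpl29), 79.0% (Rps2), 71.0% (Rps3a1) and 50.6% (Rpl34) of windows in a gene elsewhere. Such copies are not particular to them, since the cytosolic median was 52.1% and 44 of 83 genes shared over 50%. The part of these copies in the spread was not tested.

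**Figure D4:**
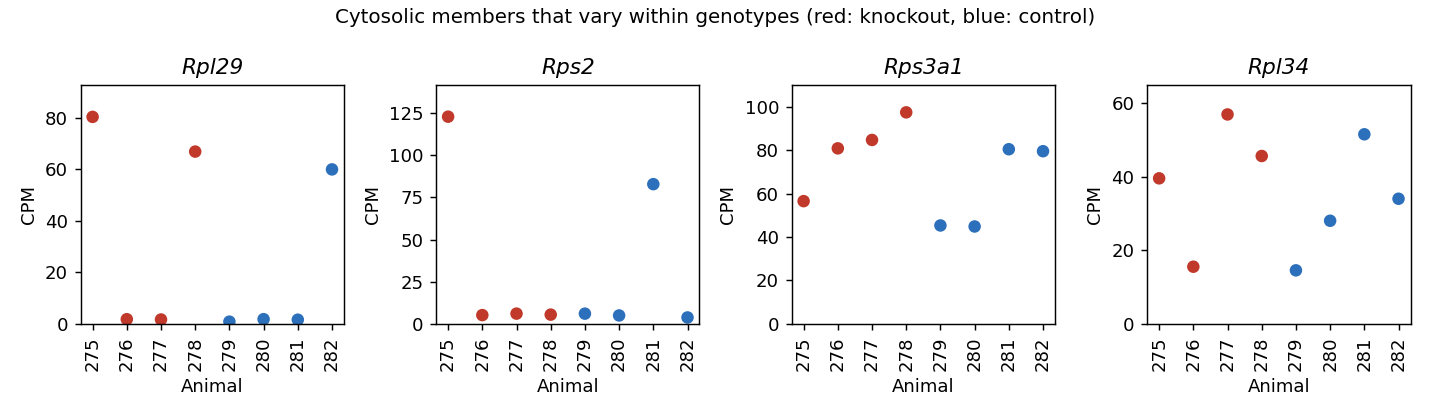
CPM (vertical axis, from 0) of Rpl29, Rps2, Rps3a1 and Rpl34 in each animal (horizontal axis), knockouts in red and controls in blue. Rpl29 is at 60.0 to 80.3 CPM in 3 animals and at most 1.81 CPM in the other 5, and Rps2 is at 82.9 and 123 CPM in 2 animals and at most 6.06 CPM in the other 6.

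Copies elsewhere in the genome bear on the cytosolic set as a whole and on fewer of the mitochondrial genes. The median cytosolic gene shared 52.1% of its 50-base windows with a gene elsewhere, 44 of 83 shared over 50% and 2 shared none. The median mitochondrial gene shared 0%, 41 of 77 shared none and 1 shared over 50%. Windows shared with an overlapping gene were found for 25 mitochondrial and 14 cytosolic genes. Of the called mitochondrial genes Mrpl22 had 33.4% of windows elsewhere, and Mrps25 73.9% with an overlapping gene counted. The other called mitochondrial genes had at most 12.65% (Mrpl18) with overlapping genes counted. The 882 pseudogenes that share windows with cytosolic members took 1.27% ± 0.0303 of counts in the knockouts and 1.07% ± 0.0179 in the controls (SD, n = 4 each), more than the members themselves, with ranges of 1.24% to 1.31% and 1.06% to 1.09%. They were therefore higher in every knockout, like the members. Among cytosolic genes with at most 50% of windows elsewhere 8 of 39 were called higher (20.5%, median log2 fold change 0.12). Among the others 5 of 44 were (11.4%, median 0.16), near the 9.27% of all genes. This split was chosen after the data were seen.

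In the mitochondrial ribosome the large subunit gene Mrpl18 had the smallest p. It belongs to the same protein family as Rpl5 of the cytosolic ribosome. Mrpl18 (chromosome 17, 12911349 to 12916345, minus strand) measured 28.7, 25.5, 34.7 and 31.9 CPM in the knockouts and 45.9, 52.5, 40.4 and 45.0 CPM in the controls. Every knockout lay below every control (log2 fold change -0.61, SE 0.12, adjusted p = 0.00133). So within this family the cytosolic member was called higher and the mitochondrial member lower.

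Mrpl49 (chromosome 19, 6053622 to 6057785, minus strand), another large subunit gene, measured 12.5, 12.4, 15.9 and 10.6 CPM in the knockouts and 17.3, 20.2, 19.4 and 21.9 CPM in the controls. The groups did not overlap (log2 fold change -0.61, SE 0.15, adjusted p = 0.00688). Mrpl18 and Mrpl49 were the only mitochondrial calls that held with each animal left out.

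Mrpl45, a protein at the exit of the peptide tunnel that faces the inner membrane (chromosome 11, 97315716 to 97329920, plus strand), measured 15.8, 15.9, 14.6 and 16.0 CPM in the knockouts and 19.7, 26.1, 19.5 and 22.6 CPM in the controls. The knockouts were close to each other and all below the controls (log2 fold change -0.49, SE 0.13, adjusted p = 0.0129). The call was lost without control 280 (adjusted p = 0.0536). Mrpl22, of the wall of the same tunnel (chromosome 11, 58171661 to 58179565, plus strand), measured 11.6, 15.5, 12.2 and 20.9 CPM against 18.2, 23.0, 28.4 and 20.6 CPM. Here knockout 278 lay inside the control range (log2 fold change -0.58, SE 0.19, adjusted p = 0.0387), and the call was kept without knockout 278 or control 279 and lost in the other 6 omissions (-0.79 to -0.45). With the erythroid covariate its sign turned (0.35).

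Mrpl1, of the flexible L1 stalk (chromosome 5, 96209493 to 96266727, plus strand), measured 25.5, 18.7, 25.3 and 26.9 CPM against 33.4, 31.6, 38.9 and 28.7 CPM. The groups did not overlap, with knockout 276 lowest (log2 fold change -0.46, SE 0.13, adjusted p = 0.0205), and the call was lost without knockout 276 or control 279 or 281 (-0.53 to -0.36). Mrpl40 (chromosome 16, 18872018 to 18876862, minus strand) measured 10.2, 11.1, 10.4 and 9.28 CPM against 13.2, 14.3, 14.3 and 13.8 CPM. It did not overlap (log2 fold change -0.45, SE 0.14, adjusted p = 0.0339), yet of the 8 omissions only that of knockout 276 kept the call (-0.49 to -0.40).

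Mrpl12, of the stalk that recruits translation factors and second in level per length in this set (46.9 CPM per kb), was called lower (-0.27, SE 0.09, adjusted p = 0.0331). So were the small subunit genes Mrps22 (-0.43, SE 0.14, adjusted p = 0.0306) and Mrps25 (-0.38, SE 0.13, adjusted p = 0.0499). Mrpl12 and Mrps22 did not overlap between the genotypes and Mrps25 did. The calls of Mrpl12 (-0.31 to -0.24) and Mrps25 (-0.48 to -0.32) were lost in 6 of 8 omissions each and that of Mrps22 (-0.51 to -0.33) in 4.

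Other mitochondrial members are given as values. Mrpl52 was highest per length (196 CPM per kb, beside a median of 13.6 and Mrpl19 lowest at 2.31) and had a log2 fold change of 0.20 (SE 0.09, adjusted p = 0.136). The highest fitted value was that of Mrpl54 (0.25, SE 0.14) and the lowest that of Mrps36 (-0.68, SE 0.33, adjusted p = 0.157), at 1.46 to 2.05 CPM in the knockouts and 1.84 to 3.72 CPM in the controls. Mrps36 was kept by its name, though its protein is known as a part of the oxoglutarate dehydrogenase complex. Mrps18a, Mrps18b and Mrps18c, relatives that occupy separate places in the ribosome, had 0.08 (SE 0.15), 0.14 (SE 0.22) and -0.25 (SE 0.21), none called. Mrps18a is counted with the small subunit by its symbol, though structures place its protein in the large subunit. All subunits were read from symbols alone, so the small subunit counts above also hold Mrps36 and Rps19bp1 and may hold other misplaced genes.

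The DNA around the start sites holds a feature whose share differs between the 2 sets. Promoters were taken from RefSeq on GRCm38.p6, which held 63 of the cytosolic and 68 of the mitochondrial members. A TOP start, here a C as the annotated first base of the transcript followed by 4 bases that are each C or T, was found in 13 of 63 cytosolic promoters (20.6%), 0 of 68 mitochondrial promoters and 2.20% of 16419 protein-coding genes. With any 5 pyrimidines from the first base counted, the numbers were 15 (23.8%), 1 (1.47%) and 3.79% of all. With a TOP start allowed up to 2 bases to either side they were 20 (31.7%), 7 (10.3%, near the share of all) and 8.83% of all. These looser rules were added after the data were seen. The 30 bases centred on the start of 2 called cytosolic genes with a TOP start and of 2 called mitochondrial genes are shown so that the starts can be read. Each holds 15 bases before the start and 15 from it, and capitals mark a pyrimidine run that opens with C at the start. They lie at chr4:86857353-86857382 (Rps6, minus strand), chr9:114982725-114982754 (Rps27rt, minus strand), chr11:97315701-97315730 (Mrpl45, plus strand) and chr11:58171649-58171678 (Mrpl22, plus strand).
Rps6: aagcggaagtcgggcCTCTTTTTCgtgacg
Rps27rt: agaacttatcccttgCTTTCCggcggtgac
Mrpl45: gtgcccgcgcgcccctcccctggagagcgt
Mrpl22: ccggcgtttgatcccggaggcttccgtagg

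The run in Rps6 is 9 bases and that in Rps27rt 6. Mrpl45 also starts with a run of pyrimidines, but its first base is T, so the rule did not count it. Mrpl22 has no run at its start. The start in RefSeq lay 45 bases from that in GENCODE for Rps6, 0 for Rps27rt and Mrpl45 and 3 for Mrpl22. Among cytosolic genes with a TOP start it lay 281 to 891 bases away for Rplp2, Rps10, Rpl15, Rpl35 and Rps15a. For the others with a TOP start it lay at most 91 bases away. A start moved by a base can gain or lose the run. Of the 13 cytosolic genes with a TOP start (Rpl14, Rpl15, Rpl28, Rpl35, Rpl38, Rplp2, Rps6, Rps10, Rps15a, Rps18, Rps21, Rps27 and Rps27rt) 3 were called higher, with a median log2 fold change of 0.18. Of the 50 without it at the RefSeq start 6 were called higher, with a median of 0.15, beside 9.27% of all genes tested called higher. Called members without a promoter entry included Rps14 and Rps20.

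Both sets shared another feature. The letters CCGGAAG, the core bound by ETS factors such as GABP, occurred on either strand from 250 bases before to 50 after the start in 36.5% of cytosolic and 35.3% of mitochondrial promoters, beside 12.4% of all. AAGATGG, the YY1 core, occurred in 14.3%, 19.1% and 6.52%, and GCATGCG, the NRF1 core, in 7.94%, 11.8% and 4.72%. CACGTG, the E-box bound by Myc, was found in 7.94% and 7.35%, beside 8.06% of all, and TATAAA in 9.52% and 5.88%, beside 12.8%. A match to such letters is a description, not a bound site. Mitochondrial genes with the ETS core had a median log2 fold change of -0.05 (3 of 24 called lower) and those without it -0.20 (6 of 44). Cytosolic genes with it had 0.11 (3 of 23 called higher) and those without it 0.17 (6 of 40). Of all genes tested 11.4% were called lower and 9.27% higher.

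The promoters of Rps6 and Mrpl22 are shown because a called member of each ribosome carries the ETS core. They run from 250 bases before to 15 after the start, at chr4:86857353-86857617 (minus strand) and chr11:58171414-58171678 (plus strand) of GRCm38.p6. Capitals mark CCGGAAG in both and, in Mrpl22, the 8 letters CGCATGCG, in which the NRF1 core is read on both strands.
Rps6: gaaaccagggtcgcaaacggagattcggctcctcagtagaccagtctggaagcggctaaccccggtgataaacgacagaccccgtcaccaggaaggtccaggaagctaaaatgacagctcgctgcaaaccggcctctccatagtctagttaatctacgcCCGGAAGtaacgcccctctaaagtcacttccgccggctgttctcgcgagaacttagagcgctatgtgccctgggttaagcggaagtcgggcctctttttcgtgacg
Mrpl22: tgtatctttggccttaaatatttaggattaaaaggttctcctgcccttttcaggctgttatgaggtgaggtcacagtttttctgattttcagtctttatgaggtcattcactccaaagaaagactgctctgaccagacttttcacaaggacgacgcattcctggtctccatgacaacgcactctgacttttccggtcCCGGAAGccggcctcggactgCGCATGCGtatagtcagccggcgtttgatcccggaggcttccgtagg

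Genes that work with the ribosomes were counted from lists. The lists gave 0 to 3 calls in a direction, shares that for lists of this size are to be read beside the 9.27% higher and 11.4% lower of all genes. Of 3 cytosolic ribosomal proteins with other names, Rack1, a scaffold on the small subunit, was called higher (log2 fold change 0.31, SE 0.08, adjusted p = 0.00947; 365 to 401 CPM against 301 to 334 CPM), and the other two, among them Fau (0.08), were not. Of 5 mitochondrial ribosomal proteins with other names all 5 had values below 0 (median -0.27). Among them Ptcd3, of the small subunit, was called lower (-0.42, SE 0.10, adjusted p = 0.00599), at 34.9 to 43.7 CPM against 47.9 to 57.3 CPM. These genes, which the symbol rule did not pick, thus gave 1 call in the direction of each set.

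Factors that build the cytosolic ribosome were counted next. Of 30 biogenesis genes 0 were called higher and 3 lower (10%, beside 11.4% of all genes), and 21 had values below 0 (median -0.12). Those lower were Nolc1 (-0.52, SE 0.12, adjusted p = 0.00504), a nucleolar chaperone of modification particles, and Nop56 (-0.51, SE 0.12) and Nop58 (-0.38, SE 0.11), core proteins of the RNA methylation particle. The call of Nop58 was lost without knockout 276 or control 281 (-0.48 to -0.27). Of 14 RNA polymerase I genes Taf1a was called higher (0.74, SE 0.18) and Ubtf lower (-0.27, SE 0.08), with a median of 0.02. The call of Ubtf was lost in 5 of 8 omissions (-0.33 to -0.24).

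Other mRNAs known for a TOP start were mixed. Of 18, 3 were called higher and 3 lower (median 0.15). Higher were the elongation factors Eef1a1 (0.40, SE 0.08, adjusted p = 0.00144; 1698 to 1800 CPM against 1251 to 1385 CPM) and Eef2 (0.28, SE 0.09), and Tpt1 (0.34, SE 0.08). Lower were Nap1l1 (-0.37, SE 0.10), Hnrnpa1 (-0.34, SE 0.12) and the poly(A)-binding protein gene Pabpc1 (-0.27, SE 0.09). The call of Eef2 was lost in 5 of 8 omissions (0.21 to 0.32), and those of Hnrnpa1 (-0.41 to -0.28) and Pabpc1 (-0.34 to -0.24) in 6 each.

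Upstream regulators gave few calls. Of 18 mTORC1 genes the inhibitor Tsc1 was called higher (0.37, SE 0.10) and the nutrient sensor Sesn3 lower (-0.42, SE 0.11, adjusted p = 0.00916), with a median of 0.04. The call of Tsc1 was lost in 4 of 8 omissions (0.31 to 0.45). Of 10 Myc network genes Mnt was called higher (0.52, SE 0.15), and Mxd3 (-1.43, SE 0.18, adjusted p = 3.48e-05) and Mxd1 (-0.997, SE 0.18) lower. All 3 encode partners of Max that repress Myc targets. Myc itself had 0.18 (SE 0.13, adjusted p = 0.350), and the call of Mnt was lost without knockout 276 or control 280 or 281 (0.39 to 0.62).

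On the mitochondrial side 12 of 13 translation factor genes had values below 0 (median -0.19). Tufm, the elongation factor that delivers tRNA, was called lower (-0.42, SE 0.12, adjusted p = 0.0163; 19.2 to 22.3 CPM against 25.2 to 31.8 CPM), a call lost without control 279 (-0.35 at the weakest over the omissions). Of 23 assembly genes 2 were called lower, C1qbp (-0.37, SE 0.09, adjusted p = 0.00711) and the ribosomal RNA methylase Mrm1 (-0.91, SE 0.25), the latter lost without control 280 (-0.77 at the weakest). Of 17 mitochondrial aminoacyl-tRNA synthetases 0 were called higher and 1 lower, with a median of -0.01. Of 15 genes for transcription of mitochondrial DNA and RNA stability 0 were called by edgeR (median -0.10), and the smallest p was that of Pprc1, a coactivator (0.31, SE 0.12, adjusted p = 0.0762).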

How the data were processed

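Livers were collected in Trizol and RNA was extracted with a column kit, per the labels' protocols. The deposited table gives counts of reads in whole numbers for each Ensembl gene. Alignment by the authors used Rsubread 2.20.0 (R 4.4.1, BiocManager 1.30.26) and a build that the labels' protocols spell GRMm38, taken as GRCm38. Counting was by featureCounts, per the submitters' processing notes. Their own tests used DESeq2 1.46.0, as the series' design text states. Annotation, strandedness and multi-mapping settings were not given in the sources used here. Values of genes with copies or overlapping neighbours are uncertain for that reason.

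Symbols came from GENCODE M21, which matched 48058 of 48440 gene IDs. Groups came from the labels' genotype. No replicate pair in a group agreed within sampling noise (chi-square per degree of freedom 12.2 to 24.0). Ages are given only as a range, and batch, litter and sex per pup are not given, so none is in the fit. The test was edgeR's quasi-likelihood F-test with robust dispersion (edgeR 4.0.16, R 4.3.3, limma 3.58.1), with filterByExpr (minimum count 10, minimum total count 15), TMM scaling and Benjamini-Hochberg adjustment at 0.05. Alternatives included DESeq2 1.42.0, limma-voom, other scalings and filters, a minimum fold of 1.5, an erythroid covariate and leaving out animals. Copies were found as 50-base windows of each member's principal transcript in transcripts of other genes. The script was tested on simulated data. Figures used matplotlib 3.10.9.

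The members, lists and tests were chosen with earlier results of these data known. The text names Myo5b, the 6 largest called differences in each direction and set, the 2 members highest in CPM per kb of each set, paralogs with their partners, the stalk proteins with Rpsa, and the gene with the smallest p in each list. Other genes were named after their values were seen. Some genes counted among the members and lists are not reported here by name.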

Additional observations from a re-analysis of the deposited data

Results flagged for a closer look

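In groups of 4 animals, a value was picked out where its gap to the nearest other, divided by the group's range, was above Dixon's critical value. Chance picks out about 1 in 20 groups. Among the named members 7 of 86 groups were picked out, and among all members 13 of 166 cytosolic and 4 of 154 mitochondrial groups.

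Knockout 275 stood above the other knockouts in Rps27rt (61.5 CPM, others 51.0 to 52.8), Rps6 (139.9 CPM, others 122 to 125), Rpsa (503 CPM, others 445 to 454) and Rps2 (123 CPM, others 5.18 to 6.06). Control 281 stood above the other controls in Rps2 (82.9 CPM, others 3.79 to 6.04). Control 282 did so in Rpl29 (60.0 CPM, others 0.844 to 1.81). Knockout 277 stood below the other knockouts in Mrpl45 (14.6 CPM, others 15.8 to 16.0), a gap of about 1 CPM in a group with little spread.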

How the results depend on the processing

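No paired analysis was possible because the groups share no replicate number. The cytosolic median stayed above 0 and the mitochondrial median below 0 in all 21 alternatives. Scaling by library totals alone gave 20 cytosolic genes higher (median 0.22), beside 12.6% of all genes. It gave 1 mitochondrial gene higher (Mrpl52) and 4 lower (median log2 fold change of mitochondrial members -0.0795), beside 9.28% of all genes lower. The median over all genes was 0.08. Limma-voom called 1 cytosolic gene lower (Rpl15). A required fold of 1.5 left 0 cytosolic genes higher and 0 mitochondrial genes lower, since that test asks for a larger difference. Of all genes it called 1.19% higher and 2.74% lower. The erythroid covariate also left 0 and 0, and called 0.115% of all genes higher and 0.0985% lower. Without knockout 278 and control 282 together the mitochondrial median was -0.21. The knockout over control ratio of the summed cytosolic share was 1.17, and 1.14 without the 10 genes above 1% of counts. With 1 animal left out, cytosolic genes called higher numbered 8 to 12 and called lower 0 to 1, and mitochondrial genes called lower 4 to 9. Of all genes 6.51% to 9.38% were called higher and 9.01% to 11.5% lower in these fits. Upper-quartile scaling gave 50.4% of all calls higher. DESeq2 called 17 cytosolic genes higher and 13 mitochondrial genes lower. It also called more of all 18274 genes, 2003 higher and 2265 lower, beside 1694 and 2088 by edgeR's quasi-likelihood test.

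Single genes that turned sign were mostly near 0. Rpl36al was 0.0243 with upper-quartile scaling, 0.0618 with library totals alone and 0.00558 in limma-voom, and Rpl8 was 0.0385 with library totals alone. With 1 animal left out, Rpl36al ran from -0.0507 (without knockout 277) to 0.0306 (without knockout 278), Rpl7 from -0.0150 (without knockout 275) to 0.0905, Rplp0 from -0.00403 (without control 281) to 0.0970, Rplp2 from -0.0150 (without control 281) to 0.131, and Rps2 from -2.14 (without knockout 275) to 2.82 (without control 281). Without knockout 278 and control 282 Mrps18a was -0.0430 and Mrps18b -0.0663. Under the erythroid covariate Rps7 was -0.15, Rpl8 0.13, Mrpl22 0.35, Rpl22l1 -0.18, Rpl36a -0.34, Mrps18c 0.42, Rpsa -0.0446, Rps2 -7.46 and Rpl34 -0.20. The cause was not tested. The calls of Rps27rt, Rps20, Rpl5, Rpl23, Rps6, Rps14 and Mrpl18 were lost only under the required fold and the erythroid covariate. Depth limits Rpl24 (1.31 CPM) and Mrps36 (2.38 CPM) most, the lowest of each set.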
